A study of Caenorhabditis elegans with 4 samples.

Results

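LET-418 had 2238 peaks on chromosome II of Caenorhabditis elegans, out of 13690 in the whole series. They are all peaks that the series-wide list places on chromosome II, which spans 15279 kb in the WS220 assembly up to the last called base. Each peak was assigned to a region by its midpoint. The left arm lies below position 4879000 and held 802 peaks, the right arm lies above 12020000 and held 563 peaks, and the centre lies between these boundaries and held 873. The peaks nearest to the boundaries were the left-arm peak at II 4857135 to 4857369 and the centre peak at II 4881887 to 4882162, then the right-arm peak at II 12022794 to 12023698 and the centre peak at II 12011237 to 12011559. No peak was filtered out.

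Chromatin immunoprecipitation followed by sequencing (ChIP-seq) was made with a rabbit polyclonal antibody to LET-418 on whole wild-type N2 larvae of stage L3, a mixed population of males and hermaphrodites raised at 20 °C. Of the 4 samples, which share strain, genotype and stage, 2 are LET-418 ChIP replicates and 2 are input DNA. Peak lists were at hand for each ChIP replicate and for the series as a whole, and no values per input sample were used here. Whole larvae mix all tissues, so a site bound weakly in all cells and one bound strongly in few cells cannot be told apart.

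LET-418 belongs to the Mi-2/CHD4 family of ATPases that remodel nucleosomes. It is a catalytic subunit of the NuRD and MEC complexes, and it is known in the worm for keeping germline genes off in somatic cells, for its part in vulval development and for acting with heterochromatin factors at repetitive DNA. Worm autosomes have a central domain that is rich in genes and recombines rarely, between arms that recombine more often and hold more repeats. The regions of II compared below follow that division.

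Averaged over each region, LET-418 peaks were denser in both arms of II than in its centre. In the series-wide list the density was 164 peaks per Mb in the left arm (95% exact Poisson interval 153 to 176), 173 per Mb in the right arm (159 to 188) and 122 per Mb in the centre (114 to 131). The left arm exceeded the centre 1.34-fold (1.22 to 1.48), with a Benjamini-Hochberg adjusted p of 4.92e-09 in a two-sided exact conditional binomial test. The right arm exceeded it 1.41-fold (1.27 to 1.57, adjusted p = 1.18e-09 in the same exact test). The arms themselves had a left-to-right ratio of 0.95 (0.853 to 1.06, adjusted p = 0.377 in the exact test), which is within counting error. Peaks covered 5.50% of the left arm, 6.22% of the right arm and 4.13% of the centre. The left-arm excess was not spread over the whole arm. Its median 500-kb bin held 60 series-wide peaks, as did that of the centre, while that of the right arm held 88. These tests treat each peak as an independent count. Peaks lie in clusters, so their p-values are too small and their intervals too narrow, and with 1 list per replicate they do not measure variation between cultures.

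The full replicate lists, which differ in length, placed that excess differently. Replicate 1 was the shorter list, with 355 peaks on II. It had 44.5 peaks per Mb in the left arm (217 peaks), 19.6 in the right arm (64 peaks) and 10.4 in the centre (74 peaks). Replicate 2, with 3144 peaks on II, had 206 per Mb in the left arm (1005 peaks), 250 in the right arm (815 peaks) and 185 in the centre (1324 peaks). In the full lists the left arm was thus the densest region in replicate 1 and the right arm the densest in replicate 2. The centre was the sparsest in both. The ratio of the left arm to the centre was 4.29 in replicate 1 (exact interval 3.28 to 5.67) and 1.11 in replicate 2 (1.02 to 1.21). The ratio of the right arm to the centre was 1.89 in replicate 1 (1.33 to 2.68) and 1.35 in replicate 2 (1.23 to 1.47). The left-to-right ratio was 2.27 in replicate 1 (exact interval 1.71 to 3.04) and 0.824 in replicate 2 (0.750 to 0.905). When replicate 2 was cut to its highest scores, as many as replicate 1 has peaks, the left arm was the densest there too. The ratio of the left arm to the centre was then 1.37 (1.07 to 1.77, adjusted p = 0.0302 in the exact test). The left-to-right ratio was 1.13 (0.836 to 1.53) and did not pass. That of the right arm to the centre was 1.22 and no longer passed the exact test. The differences between the replicates in these ratios were not tested, and the sequencing depth behind each list is unknown.

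**Figure D1:**
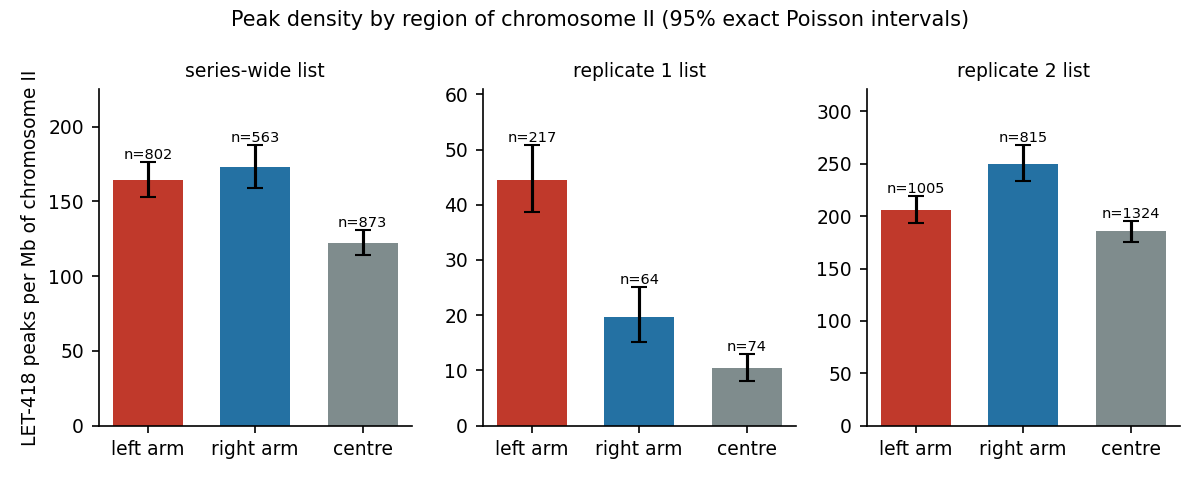
Peaks per Mb of chromosome II (vertical axes, a separate scale for each list) in the left arm, right arm and centre, with 1 panel per peak list. Bars are densities, error bars are 95% exact Poisson intervals, and n is the number of peaks. The centre is lowest in every list; the left arm is highest in replicate 1 at 44.5 per Mb, and the right arm is highest in replicate 2 at 250 per Mb.

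Series-wide peaks were spread more unevenly over the left arm than over the right arm. Over the whole 500-kb bins that cross no boundary, the 9 left-arm bins held from 29 to 206 series-wide peaks with a median of 60. The 5 right-arm bins held 58 to 104 with a median of 88, and the 14 centre bins held 28 to 111 with a median of 60. The median left-arm and centre bins thus held equal numbers in the series-wide list, but not in the replicates. The median bin of replicate 1 had 12 peaks in the left arm, 10 in the right arm and 5 in the centre, and that of replicate 2 had 81, 127 and 88. In the left arm, 3 bins held over 100 peaks each: 206 between 1 and 1.5 Mb, 144 between 2 and 2.5 Mb and 125 between 2.5 and 3 Mb. Together they had 475 peaks, 59.2% of the left arm, at 317 per Mb (exact Poisson interval 289 to 346). The remaining 3379 kb of the left arm held 327 peaks at 96.8 per Mb (86.6 to 108). In replicate 1 that remainder had 15.7 peaks per Mb (11.7 to 20.5), and in replicate 2 it had 140.3 per Mb (128 to 153). These bins were chosen for their high values, and the centre keeps its own bin of 111 peaks, so the remainder is not set against the centre and no test is given. Without the densest bin of each region the ratio of the left arm to the centre was 1.19 and the left-to-right ratio was 0.818. The bins left out held 206 peaks in the left arm, 104 in the right arm and 111 in the centre. They were picked by count, so lower left-arm ratios follow from the choice, and no test is given for them.

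Both replicates had the same crowded stretches of the left arm. Replicate 1 had 63, 67 and 34 peaks in those 3 bins, which is 164 of its 217 left-arm peaks or 75.6%. Replicate 2 had 205, 162 and 164 peaks there, or 52.8% of its left-arm peaks. The bin between them, from 1.5 to 2 Mb, was the second sparsest of the chromosome in the series-wide list, where it had 29 peaks, beside 7 of replicate 1 and 28 of replicate 2. The sparsest was the centre bin from 6 to 6.5 Mb, with 28, 4 and 52 peaks in the series-wide, replicate 1 and replicate 2 lists. The next in order was the left-arm bin from 4 to 4.5 Mb, with 41, 3 and 71. The bin from 4.5 to 5 Mb, across the left boundary, held no replicate 1 peak, although it held 43 series-wide and 85 replicate 2 peaks.

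At a finer scale the most crowded 100 kb of the chromosome ran from 1.3 to 1.4 Mb, with 79 series-wide peaks, 35 in replicate 1 and 80 in replicate 2. The interval from 2.4 to 2.5 Mb followed with 60, 17 and 65 peaks, and that from 2.2 to 2.3 Mb with 45, 29 and 50. The median 100-kb bin of II held 11 series-wide, 1 replicate 1 and 18 replicate 2 peaks. In the centre the most crowded 100 kb lay from 6.8 to 6.9 Mb, with 41, 3 and 46 peaks. It had as many series-wide peaks as the left-arm interval from 1.2 to 1.3 Mb (41, 9 and 39). Replicate 1 had no peak in 18 of 49 such left-arm bins, 7 of 32 right-arm bins and 33 of 71 centre bins, whereas replicate 2 had at least 1 peak in each of them.

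**Figure D2:**
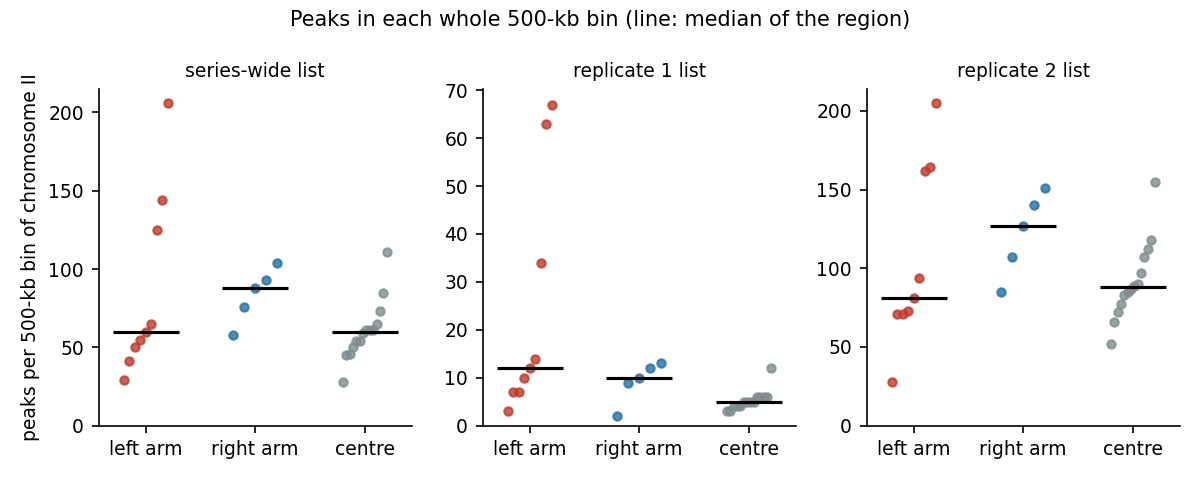
Number of peaks in each whole 500-kb bin of chromosome II that crosses no region boundary (vertical axes, a separate scale for each list), by region, with 1 panel per peak list. Each point is a bin, and lines are medians over 9 left-arm, 5 right-arm and 14 centre bins. In the series-wide list 3 left-arm bins stand at 125 to 206 peaks, whereas the medians of the left arm and the centre are both 60.

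Neighbouring peaks lay closest together in the left arm. The median distance between the midpoints of neighbouring series-wide peaks was 1143.5 bp in the left arm (exact interval of the median 1051 to 1278), 1898 bp in the right arm (1650 to 2185) and 2205 bp in the centre (1868 to 2670). Neighbours under 1 kb apart made up 44.4% of the left-arm pairs (Wilson 41.0 to 47.9), 32.9% of the right-arm pairs (29.2 to 36.9) and 30.3% of the centre pairs (27.3 to 33.4). The left arm also had wide empty stretches. Distances over 50 kb occurred 21 times there, 4 times in the right arm and 26 times in the centre. The 3 widest gaps between series-wide peaks of II were all in the left arm, at II 1524218 to 1661353 (137 kb), II 3683075 to 3808574 (125.5 kb) and II 2059668 to 2176204 (117 kb). None of them held a replicate 1 peak, and they held 2, 3 and 2 replicate 2 peaks. The gap at 1.5 Mb lies next to the most crowded bin of the chromosome, and the gap at 2.1 Mb lies inside the next most crowded one.

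Runs of closely spaced peaks were more common in the left arm. A run is a set of neighbouring peaks whose midpoints follow each other at under 1 kb. Runs of 5 or more held 23.9% of the left-arm peaks (192 peaks in 30 runs, Wilson 21.1 to 27.0), 13.9% of the right-arm peaks (78 in 13 runs, 11.2 to 17.0) and 13.4% of the centre peaks (117 in 19 runs, 11.3 to 15.8). Peaks with no neighbour within 1 kb made up 35.7%, 48.7% and 53.7% of the left arm, right arm and centre. The longest run was in the centre, at II 6825765 to 6836667, with 15 peaks over 10.9 kb that covered 74.6% of the span. Its scores ran from 3.11 to 13.98, and 14 of its peaks overlapped replicate 2 but 1 overlapped replicate 1. The second longest, II 2438462 to 2444849 in the left arm, had 11 peaks over 6.39 kb with scores of 4.28 to 37.56. All 11 overlapped replicate 2 and 1 overlapped replicate 1. A right-arm run at II 13193419 to 13199838 had 10 peaks, of which 9 overlapped replicate 2 and 0 overlapped replicate 1.

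In the left arm, peaks in long runs were found in replicate 1 more often than isolated ones. Of the left-arm peaks in runs of 5 or more, 35.4% overlapped replicate 1 (Wilson 29.0 to 42.4), against 18.5% of the left-arm peaks with no neighbour within 1 kb (14.5 to 23.4). The right arm had the opposite order, with 6.41% (2.77 to 14.1) in runs of 5 or more and 13.5% (9.96 to 18.1) for isolated peaks. The centre had 4.27% (1.84 to 9.62) and 7.89% (5.78 to 10.7). Over all series-wide peaks the background was 12.1%, which lies within the right-arm intervals of both the long runs and the isolated peaks. The intervals overlap in the right arm and the centre and do not overlap in the left arm. Median scores of peaks in long runs and of isolated peaks were 12.3 and 9.55 in the left arm, 5.88 and 7.20 in the right arm, and 5.75 and 7.20 in the centre.

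Left-arm peaks also had higher scores. The score is the authors' MACS peak score, deposited with no named scale, and is compared only within 1 list. Its series-wide median was 10.6 in the left arm (quartiles 5.51 and 18.9, exact interval of the median 9.72 to 11.2), 6.92 in the right arm (quartiles 4.28 and 12.7, interval 6.22 to 7.44) and 6.67 in the centre (quartiles 4.10 and 11.8, interval 6.22 to 7.18). The right arm and the centre did not differ beyond these intervals. The 10% of all series-wide peaks with the highest scores, a background of 10% by construction, took in 21.4% of the left-arm peaks (172 of 802), 8.70% of the right-arm peaks (49 of 563) and 5.73% of the centre peaks (50 of 873). In the replicate 1 list the median score was 6.62 in the left arm, 4.77 in the right arm and 4.79 in the centre. In the replicate 2 list it was 10.4, 8.62 and 8.43. The left arm had the highest median in all 3 lists, and its median in the replicate 2 list (interval 9.85 to 11.3) lay above the intervals of the right arm (7.92 to 9.30) and the centre (7.92 to 8.87). Within the left arm the 3 crowded bins had a median series-wide score of 11.9, against 8.37 in the rest.

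The order of the regions by density changed with the score. When the 2238 peaks were ranked by series-wide score and divided into 5 equal parts, the part with the lowest scores (1.31 to 4.05) had 21.1 peaks per Mb in the left arm, 39.9 in the right arm and 30.1 in the centre. The part with the highest scores (16.42 to 55.2) had 50.8 per Mb in the left arm, 26.7 in the right arm and 15.7 in the centre. Among the weakest peaks the right arm was thus the densest and the left arm the sparsest. Among the strongest peaks the left arm was the densest and the centre the sparsest. Of the left-arm peaks 30.9% belonged to the highest part and 12.8% to the lowest, whereas for the centre these were 12.8% and 24.6%. In the upper part of the list, split at its median score over all chromosomes, the left-to-right density ratio was 1.34 (adjusted p = 0.000251, exact conditional binomial test), above 1 where that of all peaks was 0.95.

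**Figure D3:**
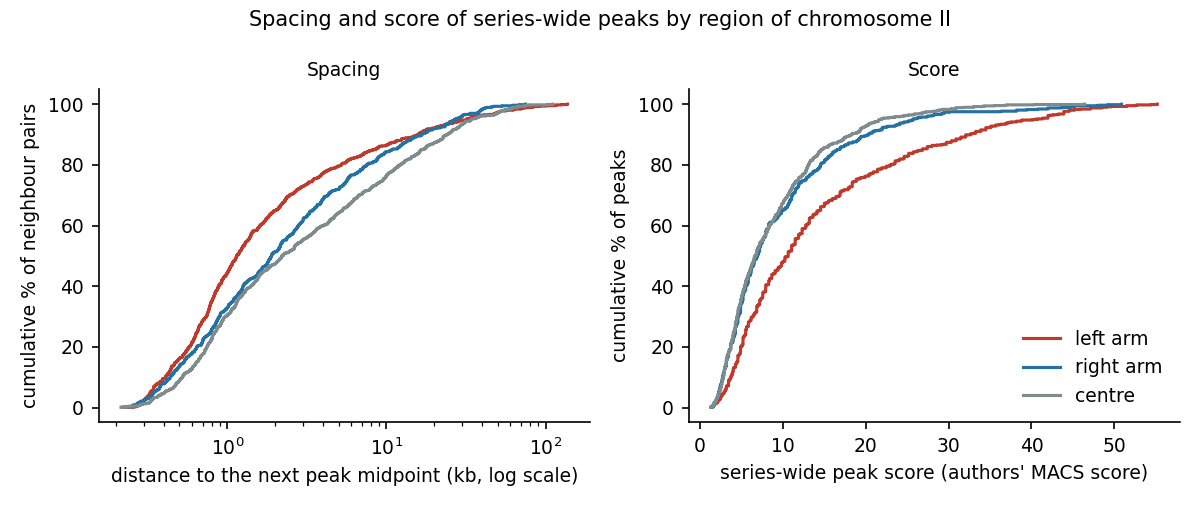
Cumulative share of neighbouring pairs by midpoint distance in kb (left, log axis) and of peaks by series-wide score (right), for the left arm, right arm and centre of chromosome II. Lines are the 802, 563 and 873 peaks of the regions. The left arm has the shortest distances, with a median of 1143.5 bp, and the highest scores, with a median of 10.6, while the right arm and the centre nearly coincide in score.

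Peak width varied little between the regions. Series-wide peaks had a median width of 254 bp in the left arm (exact interval 246 to 267), 260 bp in the right arm (250 to 275) and 245 bp in the centre (232 to 252). The narrowest peak of each region was 146 bp, the lowest width in every list. Peaks wider than 1 kb numbered 18 in the left arm (2.24%, Wilson 1.42 to 3.52), 21 in the right arm (3.73%, 2.45 to 5.63) and 30 in the centre (3.44%, 2.42 to 4.86), against a background of 2.87% over all series-wide peaks. The left arm therefore had the highest scores without having more wide peaks. Replicate 1 peaks were narrower, with a median of 205 bp in the left arm, 246.5 bp in the right arm and 190 bp in the centre. Replicate 2 peaks had medians of 243, 252 and 252 bp.

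The widest series-wide peak of II lay in the most crowded bin, at II 1235775 to 1240944, and was 5170 bp wide with a score of 32.92. Replicate 2 had a single peak of 7199 bp there, II 1235682 to 1242880, with a score of 137.31, its widest on II. The series-wide list divided this stretch into 3 peaks, the others being II 1240995 to 1241599 (605 bp, score 11.88) and II 1241697 to 1242877 (1181 bp, score 18.66). No replicate 1 peak overlapped any of the 3. The second widest was the right-arm peak II 14404722 to 14408244 (3523 bp, score 21.60), where replicate 2 had 3458 bp with a score of 63.73 and replicate 1 had a 243-bp peak with a score of 3.24. The next were all in the centre. II 11617232 to 11620515 (3284 bp) had no replicate 1 peak and a replicate 2 score of 94.45. II 10549895 to 10552828 (2934 bp) had replicate 1 and 2 scores of 3.68 and 44.38, and II 8743251 to 8746094 (2844 bp) had 1.83 and 67.82. At these 5 sites replicate 1 thus had either no peak or a short one with a score below its median of 5.88 on II. On II, 101 of 3144 replicate 2 peaks each overlapped 2 or more series-wide peaks. These were 27 of 1005 in the left arm, 31 of 815 in the right arm and 43 of 1324 in the centre. The counts are not set against those of other chromosomes. The second widest replicate 2 peak of II, II 10541976 to 10548364 in the centre (6389 bp, score 91.45), spanned 4 series-wide and 3 replicate 1 peaks. The third widest, II 694264 to 699166 in the left arm (4903 bp, score 62.78), spanned 5 series-wide peaks and no replicate 1 peak.

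The strongest sites of II were in the left arm. The highest score, 55.2, belonged to II 732402 to 732778 (377 bp), which also had the highest score of II in replicate 1 (19.64) and in replicate 2 (155.89). It was followed by II 456375 to 456810 (54.44, with 11.74 in replicate 1 and 120.33 in replicate 2) and II 2222741 to 2223374 (52.73, with 15.78 and 110.99). The remaining 2 of the top 5 were II 4047861 to 4048210 (52.56, with 14.30 and 148.22) and II 1344365 to 1344979 (51.49, with 18.77 and 85.96). All 5 were called in both replicates and were 350 to 634 bp wide. The sites that start at 2222741 and 1344365 lay in the crowded bins, and the other 3 lay outside them.

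In the right arm the 5 highest scores ran from 45.08 to 50.87. The highest was at II 13016347 to 13016705, with scores of 10.59 in replicate 1 and 128.28 in replicate 2. The second, II 13575499 to 13576070 (49.21), was not called in replicate 1, although its replicate 2 score of 150.05 was close to the highest on the chromosome, 155.89. The third, II 14561645 to 14561959 (48.04), had the high scores of 16.70 and 129.18. The fourth, II 14235807 to 14237006 (45.21, 1200 bp), had 13.17 and 80.82. The last, II 12778311 to 12778758 (45.08), was absent from replicate 1 and had a replicate 2 score of 133.70.

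In the centre the 5 highest scores ran from 35.53 to 46.43, and all 5 sites were called in both replicates. II 9655989 to 9656417 (46.43) had 16.51 in replicate 1 and 69.23 in replicate 2, and its neighbour II 9718676 to 9718948 (40.41) had 15.04 and 112.96. The others were II 7319468 to 7319807 (36.92, with 7.64 and 63.57), II 9284416 to 9285496 (36.92, with 10.59 and 60.02) and II 11166738 to 11167426 (35.53, with 7.61 and 68.88). Scores of the replicates did not rank these sites alike: the second right-arm site exceeded all 5 centre sites in replicate 2 and had no peak in replicate 1.

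**Figure D4:**
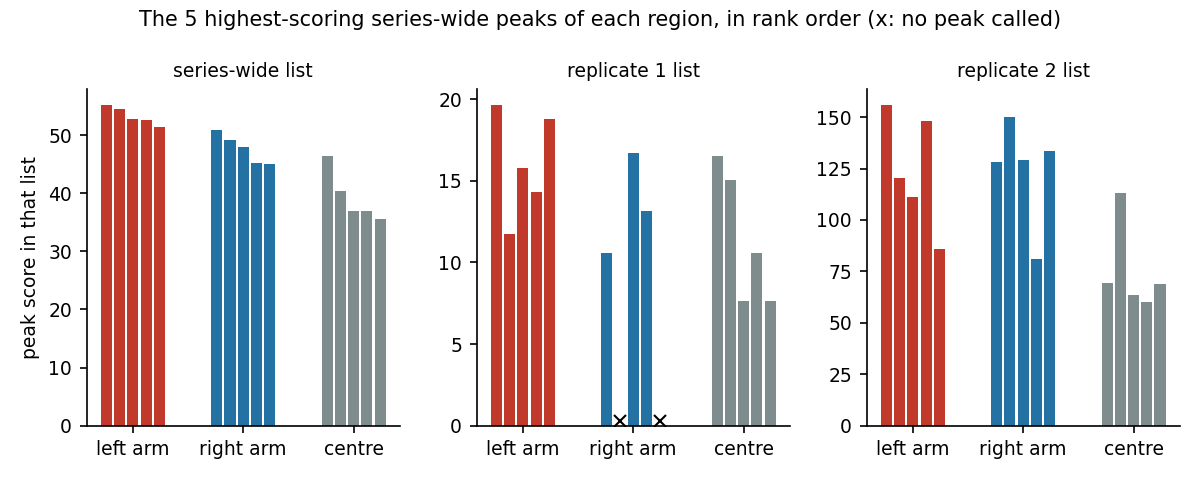
Scores (vertical axes, a separate scale for each list) of the 5 highest-scoring series-wide peaks of the left arm, right arm and centre, in rank order within each region, with 1 panel per peak list. Each bar is a peak; a cross marks a site with no peak in that list. Both crosses are right-arm sites in replicate 1, with replicate 2 scores of 150.05 and 133.70.

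Replicate 1 peaks overlapped a larger part of the left-arm peaks than of the others. Of the 355 replicate 1 peaks of II, 352 overlapped the series-wide list, and how that list was made is unstated. The shares below therefore largely follow from the densities of the lists given above and are not a separate result. Of the 2238 series-wide peaks of II, 323 (14.4%, Wilson 13.0 to 15.9) overlapped a replicate 1 peak by 1 bp or more, against a background of 12.1% over all series-wide peaks. That background takes in X, where 3.90% overlapped, while 13.2% did so on the other autosomes. The share was 24.8% in the left arm (199 of 802, Wilson 21.9 to 27.9), 10.1% in the right arm (57 of 563, 7.90 to 12.9) and 7.67% in the centre (67 of 873, 6.09 to 9.63). The odds were 3.97 times as high in the left arm as in the centre (Woolf interval 2.95 to 5.34), with an adjusted p of 3.48e-21 in a two-sided Fisher's exact test. They were 2.93 times as high in the left arm as in the right arm (2.13 to 4.02, adjusted p = 1.77e-11 in Fisher's exact test). The odds ratio of the right arm to the centre, 1.36 (0.936 to 1.96), did not pass the test (adjusted p = 0.208 in Fisher's exact test). Fisher's test also treats each peak as independent, although peaks lie in clusters. The p-values of all overlap tests given here are therefore too small and their intervals too narrow, and they do not measure variation between cultures. Shared peaks had higher series-wide scores than unshared ones in each region, with medians of 29.4 and 7.65 in the left arm, 23.8 and 6.17 in the right arm, and 21.2 and 6.19 in the centre.

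Replicate 2 held nearly all peaks in every region, and the left arm had the lowest share. Of the peaks of II, 2090 (93.4%) overlapped replicate 2, against a background of 93.3%. The share was 91.3% in the left arm (732 of 802, Wilson 89.1 to 93.0), 93.1% in the right arm (524 of 563, 90.7 to 94.9) and 95.5% in the centre (834 of 873, 94.0 to 96.7). The left-arm odds were 0.489 times those of the centre (0.326 to 0.732, adjusted p = 0.0011 in Fisher's exact test). This call was lost under a rule of 50% cover of both peaks (odds ratio 0.866, adjusted p = 0.289 in Fisher's exact test). It was also lost without the densest 500-kb bin of each region (0.616, adjusted p = 0.104) and with 3 equal parts of the chromosome as regions (0.599, adjusted p = 0.0641, Fisher's exact test). The odds ratio of the right arm to the centre was 0.628 (0.398 to 0.992, adjusted p = 0.112 in Fisher's exact test) and that of the left to the right arm was 0.778 (0.518 to 1.17, adjusted p = 0.289 in Fisher's exact test). Neither passed. The first was 1.95 in the part of the list from its median score upwards, with an interval of 0.202 to 18.9 that shows no direction (adjusted p = 1 in Fisher's exact test). It passed under a rule of 50% cover of the series-wide peak (0.583, adjusted p = 0.0245, Fisher's exact test). The left-to-right odds ratio passed from the median score upwards (0.0802, adjusted p = 0.0016, Fisher's exact test), with a wide interval of 0.0108 to 0.596. With 3 equal parts it passed as well (0.636, adjusted p = 0.0435, Fisher's exact test).

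Peaks that overlapped neither replicate numbered 147 on II, or 6.57%, the same as the background of 6.57%. There were 70 in the left arm (8.73%), 38 in the right arm (6.75%) and 39 in the centre (4.47%). Their median score was 5.51 in the left arm, 3.71 in the right arm and 3.71 in the centre, and many lay beside a replicate 2 peak. The median distance to the nearest replicate 2 peak was 315.5 bp in the left arm, 678 bp in the right arm and 551 bp in the centre, and 78 of the 147 were within 500 bp of one. The 5 with the highest scores were all in the left arm. They were II 490438 to 490647 (17.88), II 1087161 to 1087374 (14.55), II 2059449 to 2059667 (14.55), II 1226735 to 1227113 (14.10) and II 1481090 to 1481279 (14.10). The nearest replicate 2 peaks were 577, 386, 110, 317 and 1371 bp away.

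At a like replicate 2 score, a replicate 2 peak was found in replicate 1 more often in the left arm. Over all of II 331 of 3144 replicate 2 peaks overlapped replicate 1, or 10.5%, against a background of 8.65% over all chromosomes, X included. The 3144 peaks were divided into 5 equal parts by replicate 2 score. In the part with the highest scores (24.39 to 155.89), 59.8% of the left-arm peaks overlapped replicate 1 (143 of 239, Wilson 53.5 to 65.8). The share was 26.8% in the right arm (38 of 142, 20.2 to 34.6) and 19.4% in the centre (48 of 247, 15.0 to 24.8). The regions had nearly the same median replicate 2 score in this part, 40.5, 39.7 and 40.3. In the next part (11.79 to 24.35) the shares were 20.5% in the left arm, 9.52% in the right arm and 5.79% in the centre. In the lowest part (1.34 to 4.65) they were 1.19%, 0.562% and 0.353%, from 2, 1 and 1 peaks. The left-arm interval lay above the others in both upper parts, and the intervals overlapped in the 3 lower ones. In the top 10% by replicate 2 score the shares were 70.0% in the left arm, 35.8% in the right arm and 29.1% in the centre. Under a rule of 50% cover of the replicate 2 peak, those of the highest of the 5 parts were 46.0%, 11.3% and 8.50%. These shares are given as a description, since replicate 1 was already known to be crowded in the left arm.

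**Figure D5:**
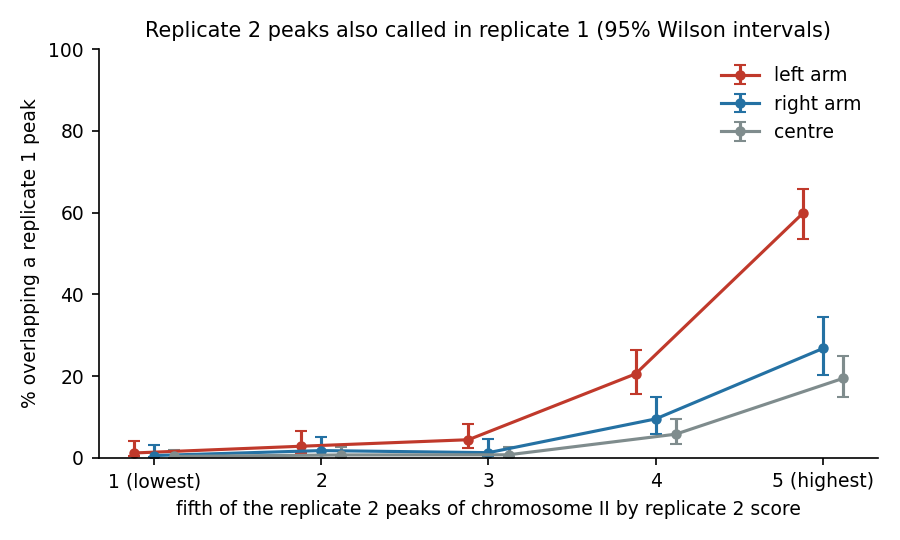
Share of replicate 2 peaks of chromosome II that overlap a replicate 1 peak (vertical axis, %) in 5 equal parts by replicate 2 score (horizontal axis, lowest to highest), for the left arm, right arm and centre. Points are shares and error bars are 95% Wilson intervals. In the highest part the left arm reaches 59.8%, the right arm 26.8% and the centre 19.4%.

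The strongest series-wide peaks with no overlapping replicate 1 peak lay in both arms, at unlike distances from replicate 1 peaks. By series-wide score they were the right-arm sites II 13575499 to 13576070 and II 12778311 to 12778758 named above, then II 2986007 to 2986532 in the left arm (43.17, with a replicate 2 score of 99.16). II 14762489 to 14762968 in the right arm followed (41.99, with 119.38), and then II 2987852 to 2988235 in the left arm (34.49, with 98.60). The left-arm pair lies within 3 kb of each other, in the crowded bin from 2.5 to 3 Mb. Replicate 1 peaks lay close to both of these left-arm sites, 623 and 478 bp away. From the 3 right-arm sites the nearest replicate 1 peak was 30674, 8907 and 200568 bp away, in the order named. None of the 5 was in the centre, but strong peaks without a replicate 1 overlap were not particular to the arms. Among peaks of II with series-wide scores of 16.42 to 55.2, 59.5% overlapped replicate 1 (266 of 447). The share was 71.0% in the left arm (176 of 248), 51.7% in the right arm (45 of 87) and 40.2% in the centre (45 of 112).

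In the other direction almost every replicate 1 peak of II was found again. Of its 355 peaks, 352 (99.2%) overlapped replicate 2, against a background of 99%, and 352 overlapped the series-wide list, against a background of 99.8%. All 217 left-arm and all 74 centre peaks of replicate 1 overlapped replicate 2, as did 61 of 64 right-arm peaks. The exceptions were II 12171571 to 12171822 (score 4.22), II 12171970 to 12172167 (2.27) and II 13958499 to 13958690 (2.27), all below the replicate 1 median of 5.88. The first and second of these lie beside each other, 4318 and 3973 bp from the nearest replicate 2 peak, and are not in the series-wide list. The last is 521 bp from one and is in that list.

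Where both replicates called a site, they drew it most alike in the left arm. Between replicate 1 peaks and the replicate 2 peaks they overlapped most, midpoints were a median of 20.5 bp apart in the left arm (217 pairs), 91 bp in the right arm (61 pairs) and 50.5 bp in the centre (74 pairs). The replicate 1 peak had a median of 0.676 times the width of its replicate 2 partner in the left arm, 0.455 times in the right arm and 0.455 times in the centre. The partners in replicate 2 were wider in the right arm (650 bp) and the centre (456 bp) than in the left arm (331 bp). Spearman's rho between the 2 scores was 0.69 in the left arm, 0.46 in the right arm and 0.27 in the centre. These correlations run over sites of the same 2 libraries, which are not independent replicates, and are a description only. Series-wide peaks with a single replicate 2 partner had midpoints a median of 13 bp from it over the whole of II (1820 pairs).

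A larger share of the replicate 2 peaks overlapped the series-wide list in the left arm. Of the 3144 replicate 2 peaks of II, 2009 (63.9%) overlapped a series-wide peak, against a background of 63.3%. The share was 71.5% in the left arm (719 of 1005, Wilson 68.7 to 74.2), 61.2% in the right arm (499 of 815, 57.8 to 64.5) and 59.7% in the centre (791 of 1324, 57.1 to 62.4). Outside the series-wide list, the median replicate 2 score was 4.98 in the left arm, 4.99 in the right arm and 4.99 in the centre. For those inside it the medians were 16.2, 14.5 and 14.8. All replicate 2 peaks together had a median of 10.4 in the left arm, 8.62 in the right arm and 8.43 in the centre. The shares were not compared at like score.

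Taken as a whole, chromosome II was close to the mean of the other autosomes. It had 146 series-wide peaks per Mb (exact Poisson interval 140 to 153), against 142 per Mb on chromosomes I, III, IV and V together (139 to 145), a ratio of 1.03 (0.984 to 1.08, adjusted p = 0.256 in the exact conditional binomial test). That mean covers wide differences, from 104 per Mb on V and 119 on IV to 169 on I and 199 on III. The ratio was 1.09 without I, 1.15 without III and 0.921 without V, and all of these passed the exact test (adjusted p = 0.000956, 2.78e-08 and 0.0012). Without IV it was 0.976 and did not pass (adjusted p = 0.337, exact test). Leaving out a denser or a sparser chromosome moves the ratio in a known direction, so these passes are not a separate result on II. The share of peaks that overlapped replicate 1 was 14.4% on II and 13.2% on the other autosomes (odds ratio 1.11, 0.970 to 1.26, adjusted p = 0.208 in Fisher's exact test). Without III, the autosome with the highest share (16.4%), this odds ratio was 1.24 and passed (adjusted p = 0.0051, Fisher's exact test). The share that overlapped replicate 2 was 93.4% on II and 92.6% on the others (odds ratio 1.12, 0.936 to 1.35, adjusted p = 0.265 in Fisher's exact test). The median score was 7.85 on II and 7.93 on the others, the median width 252 and 247 bp, and the median spacing 1619 and 1743 bp. Peaks per 100 protein-coding genes were 64.9 on II (3446 genes) and 69.3 on the others (13795 genes), with gene counts from the RefSeq annotation of WBcel235.

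The tips of II carried unequal numbers of peaks. The first 500 kb had 50 series-wide, 14 replicate 1 and 73 replicate 2 peaks, and the last 500 kb had 104, 7 and 149. The right tip thus had as many series-wide peaks as the fullest whole bin of the right arm (104 from 13.5 to 14 Mb), while the left tip was below the left-arm median of 60. Replicate 1 had more peaks at the left tip and replicate 2 had more at the right tip.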

How the data were processed

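Reads were aligned with BWA to ce10, per the submitters' processing notes, and peaks were called with MACS on WormBase WS220 (the assembly browsers call ce10), per the file headers and source column. Versions, thresholds, use of input and the making of the series-wide list are unstated in these sources. The authors deposited for each peak a start, an end and a score of unnamed scale. No read counts were used, so depth is unknown and intervals cover counting error over peaks only.

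Regions followed the peak midpoint, and the length of II is the end of its last peak in any list. Overlap meant 1 bp or more. Densities carry exact Poisson, shares Wilson and medians exact order-statistic 95% intervals. The 12 tests (two-sided exact conditional binomial for density, two-sided Fisher's exact for overlap) were adjusted together by Benjamini-Hochberg. For each alternative setting, its p took the place of the main p among the 12 before adjustment. Adjusted p-values of alternatives are thus not corrected for the number of alternatives run, and some alternatives were chosen after seeing the data. The statistics were tested on simulated data with independent draws, which leave out the clustering of peaks. Members, lists and tests were chosen with earlier results of these data known. Named regions followed a fixed rule: in each region the 5 highest scores, and over II the 5 widest peaks, 3 densest and 3 sparsest 500-kb bins, the 3 longest runs, the 3 widest gaps, the strongest peaks missing from replicate 1 or from both replicates, and replicate 1 peaks missing from replicate 2. The 100-kb bins, the divided wide sites, the widest replicate 2 peaks and the tips were chosen after their values were seen. No genome or gene models on WS220 were used here, so no peak was assigned to a gene and no sequence is shown. The software was SciPy 1.17.1 with NumPy 2.4.6, and pandas 2.3.3 under Python 3.11.15, with Matplotlib 3.10.9 for figures.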

Additional observations from a re-analysis of the deposited data

How the results depend on the processing

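The choices that cut replicate 2 to the length of replicate 1, leave out the densest bins or leave out an autosome were made after seeing the data. No paired analysis was possible because no input sample has a peak list to set beside the ChIP replicate of its number.

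With either replicate list alone, the density ratio was 1.11 to 4.29 for left arm to centre, 1.35 to 1.89 for right arm to centre, 0.824 to 2.27 for left to right arm, and 1.04 to 1.08 for II to the other autosomes. Median width was then 205 to 243 bp in the left arm, 246.5 to 252 bp in the right arm and 190 to 252 bp in the centre. Median spacing was 1251.5 to 1848.75 bp in the left arm, 1533 to 24877 bp in the right arm and 1663 to 51416.5 bp in the centre; list length differs between the replicates. With replicate 2 cut to the length of replicate 1, the left arm to centre ratio was 1.37. The right arm to centre ratio was then 1.22 and no longer passed, and the left-to-right ratio was 1.13. That left-to-right ratio was 1.34 for peaks from the median score upwards and 0.818 without the densest bins, which were picked by their counts.

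The replicate 1 overlap of the left arm passed against the centre and against the right arm in every alternative run. Since these shares largely follow from the densities of the lists, the passes are not separate support. The replicate 2 odds ratio of the left arm to the centre was 0.866 with 50% of both peaks covered, 0.599 with 3 equal parts and 0.616 without the densest bins. That of the right arm to the centre was 0.583 with 50% of the series-wide peak covered and 1.95 at or above the median score (interval 0.202 to 18.9). That of the left to the right arm was 0.0802 at or above the median score (interval 0.0108 to 0.596), 1.01 with 50% of both peaks covered and 0.636 with 3 equal parts. With replicate 1 peaks in place of series-wide peaks, the left-arm replicate 2 odds ratios had no finite value, since all left-arm and centre peaks overlapped.

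The density ratio of II to the other autosomes was 1.09, 1.15, 0.976 and 0.921 without I, III, IV and V. Its replicate 1 odds ratio was 1.24 without III, and its replicate 2 odds ratio was 0.940 with 50% of both peaks covered. The share of the strongest replicate 2 peaks found in replicate 1 was 46.0%, 11.3% and 8.50% in the left arm, right arm and centre with 50% of the replicate 2 peak covered, and 70.0%, 35.8% and 29.1% in the top 10% by score. The cause of these changes was not tested.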
